A study of Mus musculus with 18 samples.

Results

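The 9 genes described here encode coatomer, the protein complex that forms the coat of COPI vesicles, and were chosen by name from the 22524 genes counted in mouse liver: *Copa*, *Copb2*, *Cope*, *Copb1*, *Arcn1*, *Copg1*, *Copg2*, *Copz1* and *Copz2*. RNA was sequenced from the livers of 10 female *Rps2*-A226Y mice and 8 female wild-type (WT) mice, 1 library per animal, all of strain C57BL/6 and 15 months old. *Rps2* encodes a protein of the small ribosomal subunit, and its A226Y substitution lowers the accuracy of translation. The A226Y mice were heterozygous. Their mutant allele is silent until a stop cassette is cut out by Cre recombinase, which was expressed in all tissues from the CMV promoter, and the WT mice carried the same CMV-Cre transgene. According to the study's methods the excision was never complete, so that an A226Y liver was a mosaic of cells that expressed the mutant allele and cells in which that allele stayed silent. The counts do not separate these cells.

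Coatomer is recruited as a whole from the cytosol to Golgi membranes by ARF GTPases loaded with GTP, and it then bends the membrane into vesicles that return escaped ER proteins, cargo receptors and Golgi enzymes to earlier compartments. Its outer layer is built from the α, β′ and ε subunits (*Copa*, *Copb2*, *Cope*) and its inner, cargo- and ARF-binding layer from the β, δ, γ and ζ subunits. The γ and ζ subunits each have a pair of alternative genes, *Copg1* with *Copg2* and *Copz1* with *Copz2*. In the hepatocyte, which secretes most plasma proteins, this retrieval keeps the traffic through the ER and Golgi in balance.

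All 9 genes passed the filter on low counts, together with 13353 genes in all, and were compared between genotypes with edgeR's quasi-likelihood test, with p-values adjusted over all tested genes. The total count per mouse lay between 23850565 and 62126131. Levels are given as CPM, the share of a library's counts on a scale common to all libraries, after TMM scaling. The targeted gene *Rps2* averaged 68.6 ± 13.3 CPM in the 10 A226Y mice and 114.1 ± 13.03 CPM in the 8 WT mice (mean ± SD), and no A226Y mouse reached the lowest WT value. The hepatocyte marker *Alb* stood at 96060 ± 18760 CPM in the A226Y mice (mean ± SD). A226Y mouse 29 and WT mouse 33 were least like the others (median correlation of log2 CPM with the other mice 0.964 and 0.968, against 0.9752 to 0.9879 for the rest), so member counts are also given without them. In bulk liver RNA, fewer cells of a type and less RNA per cell cannot be told apart.

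The coat genes *Copb1*, *Arcn1*, *Copg1* and *Copb2* were higher in A226Y than in WT liver, by 15.5% to 20.1%, and no coat gene was lower. The other 5 genes did not pass the threshold. This was 4 of 9 members called higher, beside 7.27% of all tested genes, and 0 of 9 called lower, beside 7.03%. With TMM scaling and all mice, edgeR put no member lower at an unadjusted p under 0.05 either. *Copz2* was nearest, at p = 0.0532, and reached 0.0486 with upper quartile scaling and 0.0107 without WT mouse 6 (quasi-likelihood test). DESeq2 and limma-voom both called the same number, 4 higher and 0 lower. The count was also 4 higher and 0 lower without mice 29 and 33, but it was 1 with an offset on the length of all annotated exons and 0 with 4 surrogate variables as covariates. Over the 9 genes the log2 fold change had a median of 0.09, and over all tested genes of −0.004.

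**Figure D1:**
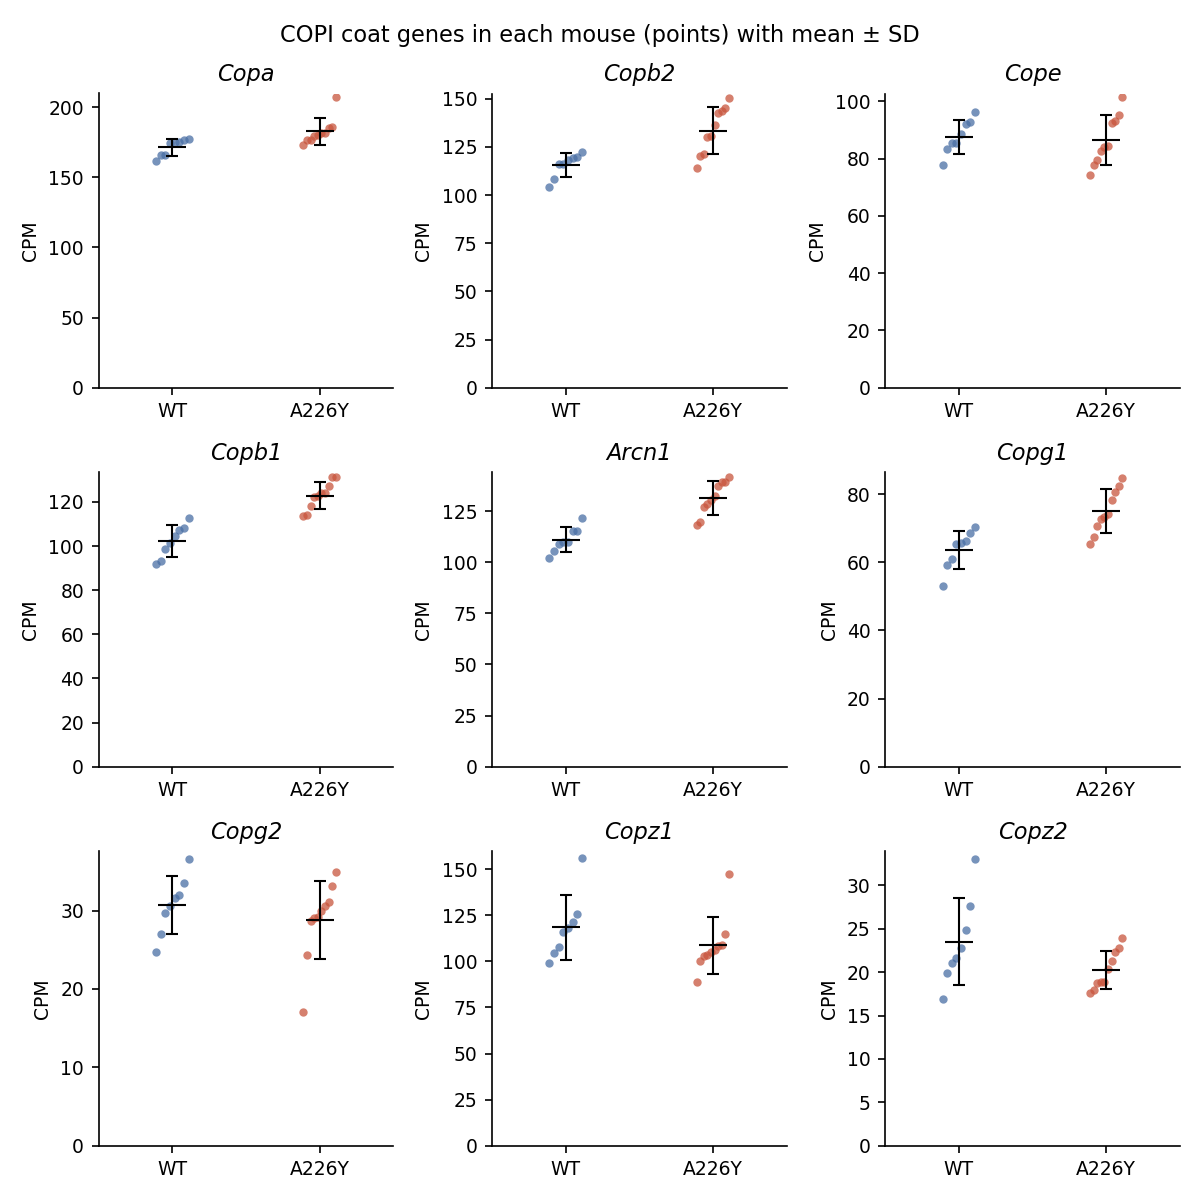
CPM of the 9 coat genes in each WT (blue, n = 8) and A226Y mouse (red, n = 10), one panel per gene with its own axis from 0; points are mice in order of value, and black lines give the mean ± SD. The groups separate fully for *Copb1* and nearly so for *Arcn1*, while *Cope*, *Copg2*, *Copz1* and *Copz2* overlap between genotypes.

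*Copb1* (ENSMUSG00000030754; chromosome 7 of GRCm38, 114215559 to 114254711, minus strand) encodes β-COP, an inner subunit that contacts ARF. It ranged from 113.7 to 131.4 CPM in A226Y mice (median 123.3) and from 92.1 to 112.9 CPM in WT mice (median 103.0). Every A226Y mouse was thus above every WT mouse, a separation seen in 0.352% of the tested genes. Its log2 fold change was 0.26 (SE 0.05, adjusted p = 0.0036), and a two-sided exact permutation test of log2 CPM gave p = 2.29e-05, the smallest value that the 43758 divisions of the mice allow.

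*Arcn1* (ENSMUSG00000032096; chromosome 9, 44741564 to 44767845, minus strand) encodes δ-COP, which pairs with β-COP in the complex. Its level lay between 118.2 and 141.9 CPM in A226Y mice (median 131.5) and between 102.3 and 121.6 CPM in WT mice (median 109.9). Of the 10 A226Y mice, 8 lay above the highest WT mouse, and the lowest was mouse 23. The log2 fold change was 0.24 (SE 0.05, adjusted p = 0.0056; exact permutation p = 0.000114). A share of 11.8% of the 50-base windows of its principal transcript also occurs in transcripts of other genes, so that part of its reads could have been assigned elsewhere.

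*Copg1* (ENSMUSG00000030058; chromosome 6, 87887814 to 87913595, plus strand) encodes γ1-COP, which binds ARF and the tails of p24 proteins. Values ran from 65.5 to 84.8 CPM (median 73.7) in A226Y and from 53.0 to 70.3 CPM (median 65.5) in WT mice. Here 8 of 10 A226Y mice exceeded the highest WT value, and 4 of 8 WT mice fell below the lowest A226Y value. The log2 fold change was 0.24 (SE 0.06, adjusted p = 0.018; exact permutation p = 0.00101). An antisense gene, *Gm26636*, shares 941 exon bases with *Copg1*. Since it is not stated whether strand was used in counting, reads from the shared stretch, 4.28% of the 50-base windows of the principal *Copg1* transcript, cannot be told apart.

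*Copb2* (ENSMUSG00000032458; chromosome 9, 98563721 to 98588382, plus strand) encodes β′-COP, an outer subunit whose propeller domains recognise retrieval signals of cargo. It was expressed at 114.0 to 150.4 CPM in A226Y (median 133.6) and at 104.4 to 122.1 CPM in WT mice (median 117.2). Of the A226Y mice, 7 were above every WT mouse, whereas mouse 29 was the lowest of its group and within the WT range. The difference on the log2 scale was 0.21 (SE 0.06, adjusted p = 0.026; exact permutation p = 0.00242). It was the one called gene that lost its call when a single mouse was left out, with an adjusted p of 0.0547 without WT mouse 13 and 0.0559 without WT mouse 24.

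The reference promoters of these genes were read for the short motifs bound by transcription factors of the ER and Golgi stress responses, on both strands, in windows from 250 bases before to 50 bases after the RefSeq start (build GRCm38.p6). Such a window was matched for 8 of the 9 genes, all but *Arcn1*, which was not searched. In 6 of these 8 windows the bases after the start were found in the gene's principal transcript. The letters TGACGTGG, or their complement, occurred near the start of *Copb1* and *Copb2*, and in 0.676% of 32851 RefSeq promoter windows. GCCACGT, which shares the letters CCACGT with the complement of that motif, occurred in *Copg1* and *Copz2*, and in 2.58% of windows. The ER stress element, CCAAT and CCACG set 9 bases apart, was in no coat gene window and in 0.119% of all windows, while CCAAT alone was in *Cope* and *Copz1* and in 37.4% of windows. The stretches around the matches in the 3 coat genes that were called higher and held one are shown on the strand of the gene, with the match in capitals.
Copb1: cccgcccccttCCACGTCAgccaaggactt
Copb2: tcccggaagttCCACGTCAgtgggttggcc
Copg1: tgctcagggcgACGTGGCgggcgggagtac
They lie at chr7:114254690-114254719 (minus strand), chr9:98563713-98563742 (plus) and chr6:87887932-87887961 (plus). Counted so that 1 is the first transcribed base of RefSeq, the match stands at bases −28 to −21 in *Copb1*, −7 to 1 in *Copb2* and 4 to 10 in *Copg1*. The GENCODE gene models of all 3 genes begin farther upstream than the RefSeq start. A match in letters is a description of the reference sequence and no measurement of binding.

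*Copa*, *Cope*, *Copg2*, *Copz1* and *Copz2* did not pass the adjusted threshold. *Copa* (ENSMUSG00000026553; chromosome 1, 172082529 to 172122330, plus strand) encodes α-COP, the scaffold of the outer layer, and was the coat gene with the most counts. It measured 173.2 to 207.4 CPM in A226Y (median 180.7) and 161.5 to 177.5 CPM in WT mice (median 174.4), with 7 of 10 A226Y mice above every WT mouse and mouse 7 far above the rest. Its log2 fold change was 0.09 (95% interval −0.005 to 0.19, adjusted p = 0.191). The exact permutation test of the same gene, which uses no spread from other genes and is not adjusted, gave p = 0.00171. Of its transcript windows, 4.61% are shared with *Ncstn* and *Gm37756*, which overlap it on the opposite strand, and *Ncstn* had a log2 fold change of −0.01 (SE 0.06, adjusted p = 0.909).

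*Cope* (ENSMUSG00000055681; chromosome 8, 70302518 to 70312993, plus strand) encodes ε-COP, which stabilises α-COP. It lay between 74.4 and 101.4 CPM in A226Y mice (median 84.2) and between 77.9 and 96.2 CPM in WT mice (median 87.0), so the A226Y range contained the WT range. Its log2 fold change was −0.02, with a 95% interval from −0.15 to 0.11 (adjusted p = 0.865).

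The second γ gene, *Copg2* (ENSMUSG00000025607; chromosome 6, 30747554 to 30896794, minus strand), measured 17.0 to 34.9 CPM in A226Y (median 29.5) and 24.7 to 36.6 CPM in WT mice (median 31.1). Mouse 29 alone gave the lowest value. The estimated log2 fold change was −0.09 (95% interval −0.31 to 0.13, adjusted p = 0.596), and −0.03 (adjusted p = 0.836) without mouse 29. *Copg2* ends within the imprinted gene *Mest*, which lies on the other strand and shares 912 exon bases with it, or 17.8% of the exon bases of *Copg2*. *Mest* was low, at 4.46 ± 0.78 CPM in A226Y and 5.06 ± 1.23 CPM in WT mice (mean ± SD). Its log2 fold change was −0.18 (SE 0.14, adjusted p = 0.403).

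*Copz1* (ENSMUSG00000060992; chromosome 15, 103272714 to 103299868, plus strand) encodes ζ1-COP, the small subunit that pairs with γ-COP. It ranged from 88.9 to 147.7 CPM in A226Y (median 105.7) and from 98.9 to 156.3 CPM in WT mice (median 117.1), with the highest values in A226Y mouse 23 and WT mouse 14. The log2 fold change was −0.13 (95% interval −0.32 to 0.06, adjusted p = 0.37), and 1 of 10 A226Y mice was above the WT mean. That fold change was −0.06 without WT mouse 14 and −0.18 without A226Y mouse 23. *Copz2* (ENSMUSG00000018672; chromosome 11, 96849870 to 96861203, plus strand) encodes ζ2-COP. It lay between 17.6 and 23.9 CPM in A226Y (median 19.6) and between 17.0 and 33.1 CPM in WT mice (median 22.2), and WT mouse 14 was again the highest. Its log2 fold change was −0.21 (95% interval −0.42 to 0.003, adjusted p = 0.175). Without WT mouse 14 it was −0.12 (adjusted p = 0.386), and with 4 surrogate variables −0.05. Both ζ genes had point estimates below 0, and neither passed the test.

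The ζ genes also share a feature that the counts do not measure, since each holds a microRNA on its own strand, outside the annotated exons. *Copz1* hosts *Mir148b* and *Copz2* hosts *Mir152*, and RefSeq gives the 3p arms of both with the same seed, bases 2 to 8, shown in capitals.
mmu-miR-148b-3p: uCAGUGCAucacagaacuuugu
mmu-miR-152-3p: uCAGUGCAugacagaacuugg
They lie at chr15:103285185-103285206 and chr11:96850439-96850459 (GRCm38.p6, both plus strand), and their levels were not analysed here.

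To compare genes with each other, CPM was divided by the length of the principal transcript in kb. Per kb, *Copz1* (70.8 ± 10.5 in WT mice, SD, n = 8) and *Cope* (67.5 ± 4.54) were the highest and overlapped in range. *Copb2* (37.9 ± 2.01) and *Copa* (37.1 ± 1.31) followed and also overlapped, below every WT value of *Cope*. *Copb1* stood at 30.6 ± 2.19, *Arcn1* at 27.3 ± 1.51 and *Copz2* at 25.3 ± 5.40 CPM per kb, each overlapping its neighbour in the order. *Copg1* (15.4 ± 1.37) and *Copg2* (7.75 ± 0.93) were the lowest, with no overlap between them. In the A226Y mice *Copg1* rose to 18.1 ± 1.55 and *Copb1* to 36.7 ± 1.85 CPM per kb (SD, n = 10), while *Copg2* stood at 7.27 ± 1.26. These levels depend on the transcript taken as the length, since all annotated exon bases together would place *Arcn1* at 7.45 and *Copz1* at 32.4 CPM per kb in WT mice.

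**Figure D2:**
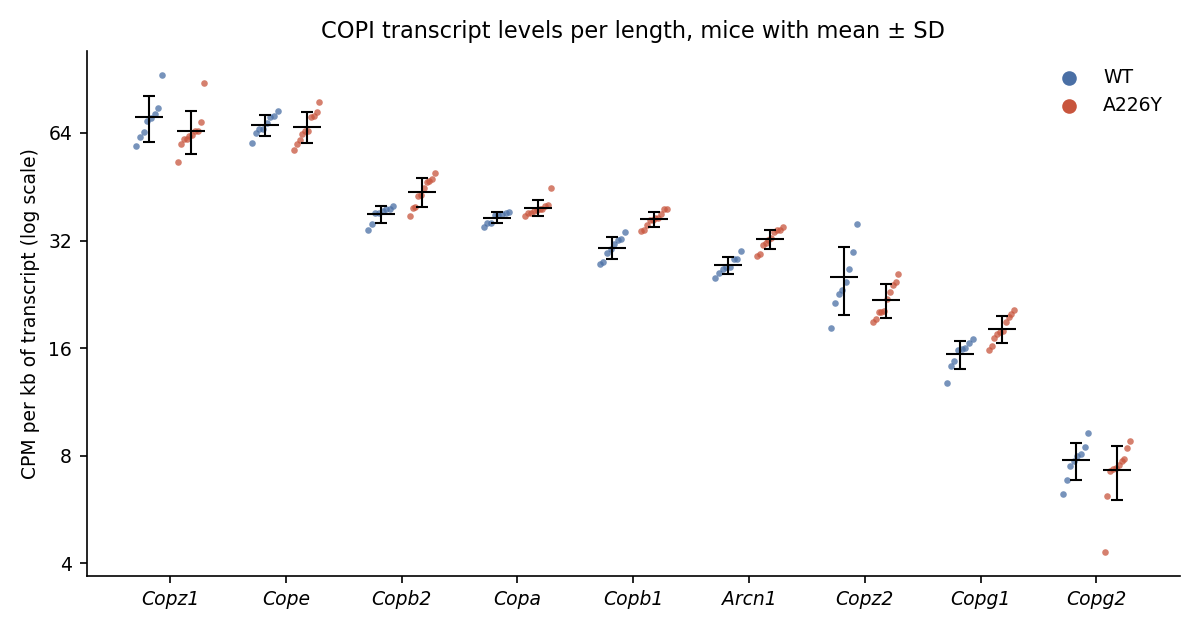
CPM per kb of principal transcript (log2-spaced axis) for the coat genes in order of their WT mean; blue points are the 8 WT and red points the 10 A226Y mice, with mean ± SD in black. *Copz1* and *Cope* lie near 64 and *Copg2* near 8 in both genotypes, and *Copb2*, *Copb1*, *Arcn1* and *Copg1* have higher means in A226Y than in WT mice.

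A ratio of 2 genes within a library needs no scaling between libraries, but it keeps any difference tied to transcript length. With 4 surrogate variables the edgeR log2 fold changes of *Copg1*, *Copg2* and *Copz1* were 0.079, 0.057 and 0.020, and the ratios themselves were not tested with these covariates. *Copg1* counts exceeded *Copg2* counts 2.73 ± 0.83 times in A226Y (SD, n = 10; range 1.97 to 4.83) and 2.10 ± 0.37 times in WT mice (SD, n = 8; range 1.66 to 2.85). This difference of 0.34 on the log2 scale had an exact permutation p of 0.0308, which became 0.0616 after adjustment over the 2 paralog ratios, and it was 0.24 without mice 29 and 33 (adjusted p = 0.131). For *Copz1* to *Copz2* the ratio was 5.40 ± 0.82 in A226Y and 5.13 ± 0.62 in WT mice (log2 difference 0.07, exact permutation p = 0.482). The paralogs can be told apart by reads of the stated length of 50 bases, because no 50-base window occurs in both genes of a pair. The longest identical coding runs are 30 bases in the γ pair and 21 bases in the ζ pair, shown here in capitals within GENCODE M21 coding sequence.
Copg1: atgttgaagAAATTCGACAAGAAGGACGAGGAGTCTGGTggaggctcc
Copg2: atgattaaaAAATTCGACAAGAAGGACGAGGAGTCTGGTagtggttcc
Copz1: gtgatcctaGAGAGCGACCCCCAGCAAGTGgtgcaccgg
Copz2: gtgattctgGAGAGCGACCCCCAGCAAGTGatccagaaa
These begin at coding bases 1, 1, 397 and 481, where base 1 is the first of the start codon.

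A further 4 ratios, of subunits that sit next to each other in the complex, were chosen after the values had been seen. The ratio of *Copb1* to *Arcn1* was the tightest, at 0.937 ± 0.048 in A226Y (n = 10) and 0.920 ± 0.025 in WT mice (n = 8; exact permutation p = 0.426). *Copg1* to *Copz1* was 0.702 ± 0.120 in A226Y and 0.548 ± 0.103 in WT mice (log2 difference 0.36, exact permutation p = 0.0106, adjusted over the 4 ratios 0.0422). The ratio of *Copa* to *Copb2* was lower in A226Y mice, 1.38 ± 0.11 against 1.48 ± 0.05 (log2 difference −0.11, exact permutation p = 0.0244, adjusted 0.0488), and *Copa* to *Cope* was 2.13 ± 0.19 against 1.96 ± 0.16 (exact permutation p = 0.0695, adjusted 0.0926). When each mouse was left out in turn, the *Copg1* to *Copz1* ratio lost its call in 8 of 18 cases (adjusted p up to 0.0938) and the *Copa* to *Copb2* ratio in 12 of 18 (up to 0.101), and without mice 29 and 33 their adjusted p-values were 0.0628 and 0.0402.

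**Figure D3:**
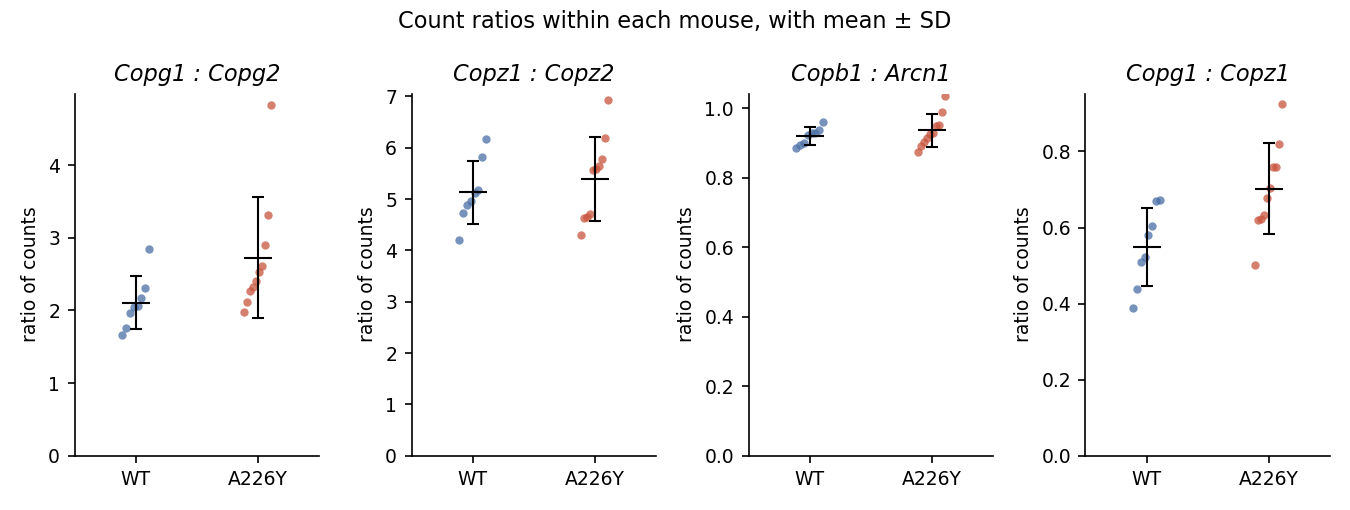
Ratio of counts of 2 coat genes within each mouse (WT blue, n = 8; A226Y red, n = 10), with axes from 0 and mean ± SD in black. *Copb1* to *Arcn1* spans 0.875 to 1.04 in A226Y mice, and the single A226Y mouse far above the others in the *Copg1* to *Copg2* panel is mouse 29, at 4.83.

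The deviations of each gene from its genotype mean show which coat genes varied together among mice, as a description over 18 mice that share their scaling. *Copb1* and *Arcn1* were the most alike of the 36 pairs (Pearson r = 0.76, Spearman rho = 0.77), followed by *Copb1* and *Copg1* (r = 0.63). By r, *Copg2* and *Copz1* (r = 0.61, rho = 0.43) and *Copz1* and *Copz2* (r = 0.57, rho = 0.45) came next. By rho they fell below *Copa* and *Copb2* (rho = 0.52) and *Copb2* and *Copb1* (rho = 0.50). *Copg1* and *Copg2* ran in opposite directions (r = −0.41, rho = −0.49), as did *Arcn1* and *Copz1* (r = −0.42, rho = −0.38). Against the mean of the other 8 members, *Copb2* had r = 0.75, *Copz1* followed at r = 0.44, and *Copg1* was lowest at r = 0.06. Outside the coat, the genes most like the mean of the members were *Ube2w* (r = 0.87, rho = 0.78), which encodes an E2 ubiquitin-conjugating enzyme, *Nbr1* (r = 0.85, rho = 0.78), an autophagy receptor, *Ggct* (r = 0.84, rho = 0.80), which acts in glutathione turnover, *Rpgr* (r = 0.84, rho = 0.81), a protein of the cilium, and *1110032A03Rik* (r = 0.84, rho = 0.88). Without the 2 mice farthest from the median, A226Y mouse 29 and WT mouse 14, these 5 values of r lay between 0.70 and 0.79. None of the 5 differed between genotypes at the threshold (adjusted p from 0.189 to 0.679). They were picked as the highest among all tested genes outside the coat, and such a choice alone favours high values of r.

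Over all tested genes the log2 fold change was higher for longer transcripts (Spearman rho = 0.25 across 13300 genes, which are not independent). Of genes with a principal transcript up to 2 kb, 2.85% were called higher, and of longer ones 8.99%. Of the coat genes, *Cope*, *Copz1* and *Copz2* have a principal transcript up to 2 kb and the 6 others, the 4 called genes among them, a longer one. With a per-library offset on the length of the principal transcript, an alternative added after the data were seen, the same 4 genes stayed called: *Copb1* (log2 fold change 0.27, adjusted p = 0.0044), *Arcn1* (0.23, 0.0077), *Copg1* (0.22, 0.023) and *Copb2* (0.22, 0.0256). With an offset on all annotated exon bases, *Copb1* alone was called (0.26, adjusted p = 0.0047), and *Copb2* (0.052), *Copg1* (0.109) and *Arcn1* (0.114) were not. That length counts 14.9 kb for *Arcn1* and 11.01 kb for *Copg1*, whose principal transcripts are 4.07 and 4.14 kb long. When 4 surrogate variables were added as covariates, no coat gene was called by edgeR. *Copb1* then had a log2 fold change of 0.15 (adjusted p = 0.198), *Arcn1* of 0.16 (0.21), *Copb2* of 0.13 (0.334) and *Copg1* of 0.08 (0.591), 3 members had an unadjusted p under 0.05, and 50 of all tested genes were called.

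**Figure D4:**
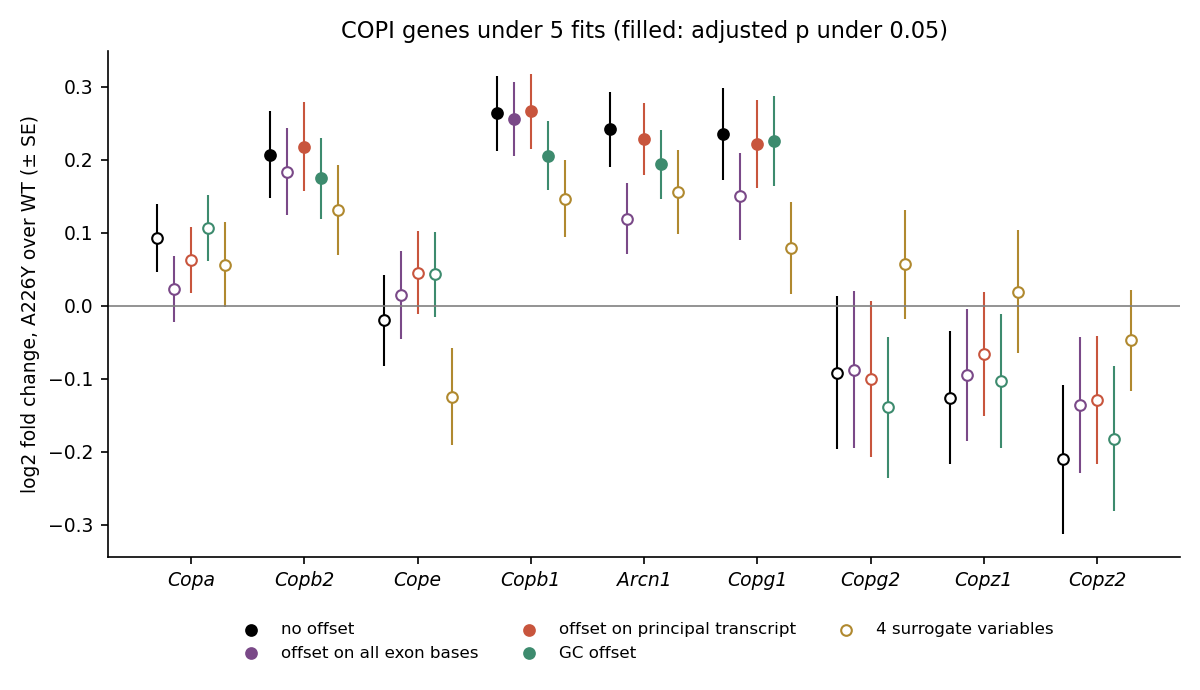
Log2 fold change (A226Y over WT, ± SE) of the coat genes under 5 fits, where filled points have an adjusted p under 0.05 and open points do not. The 4 called genes stay above 0 in all 5 fits, are all filled with no offset, with the principal transcript offset and with the GC offset, and are all open with surrogate variables.

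Around the coat, 46 genes that load, unload, tether or ride COPI vesicles were examined as 6 lists, of which 43 genes were tested. They gave 7 higher and 1 lower, beside 7.27% and 7.03% of all tested genes, and their log2 fold changes had a median of 0.03. The p24 family, cargo receptors that cycle in COPI vesicles and recruit coatomer, held the largest differences, with 3 of 9 tested members higher and none lower with edgeR. At an unadjusted p under 0.05, 4 were higher and 1 was lower, *Tmed1* (log2 fold change −0.21, adjusted p = 0.0763). Without mice 29 and 33 the counts were 3 higher and 1 lower, and with 4 surrogate variables 1 higher and 0 lower. *Tmed5* averaged 262.6 ± 22.7 CPM in A226Y and 185.3 ± 19.3 CPM in WT mice (mean ± SD), and each of the 10 A226Y mice lay above the WT mean (log2 fold change 0.50, SE 0.07, adjusted p = 0.000701). *Tmed4* (log2 fold change 0.31, adjusted p = 0.0111) and *Tmed7* (0.23, adjusted p = 0.0059) completed them.

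Among the ARF GTPases and the exchange factors that load them with GTP, *Arfgef2* was higher (96.7 ± 6.25 against 82.1 ± 10.02 CPM, log2 fold change 0.23, adjusted p = 0.0266) and *Arf5* lower (77.7 ± 9.41 against 94.9 ± 11.4 CPM, log2 fold change −0.29, adjusted p = 0.0219), out of 9 tested. With the principal transcript offset the counts of this list were also 1 and 1, but with 4 surrogate variables they were 0 and 0. With the offset on all exon bases, as with the GC offset, 0 partner genes were called lower. Of the Golgi tethers and matrix proteins, 2 of 7 were higher (7.27% of all tested genes were), *Uso1* (log2 fold change 0.22, adjusted p = 0.0077), which encodes the vesicle tether p115, and *Trip11* (0.22, adjusted p = 0.0252), which encodes the golgin GMAP-210. The ER tether and SNARE list gave 1 of 8, *Nbas* (log2 fold change 0.20, adjusted p = 0.0441), a subunit of the tether that receives COPI vesicles at the ER, and 0 of 8 with the principal transcript offset. Neither the 3 ARF GAPs, which trigger hydrolysis of GTP on ARF, nor the 7 tested retrieval receptors held a call from edgeR, at an unadjusted p under 0.05, from DESeq2 or from limma-voom. The smallest p of the former was that of *Arfgap2* (log2 fold change −0.07, adjusted p = 0.532) and of the latter that of the KDEL receptor *Kdelr1* (−0.12, adjusted p = 0.21).

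For comparison, the COPII coat, which carries cargo from the ER to the Golgi, had 2 of 14 genes higher and none lower, beside 7.27% and 7.03% of all tested genes, and a median log2 fold change of 0.09. These were *Sec13* (log2 fold change 0.29, adjusted p = 0.0118) and *Sec23a* (0.27, adjusted p = 0.0196). The clathrin adaptors AP-1 and AP-2, whose large and small subunits are related to the inner layer of coatomer, had 2 of 12 tested genes higher and none lower, beside the same shares (median −0.02): *Ap1g1* (log2 fold change 0.21, adjusted p = 0.0088) and *Ap1s3* (0.84, adjusted p = 0.0056), the latter at 0.67 ± 0.14 CPM in A226Y and 0.37 ± 0.10 CPM in WT mice. With the principal transcript offset the counts were 2 higher for COPII and 1 for the adaptors, and with surrogate variables 0 for both. No test of the difference between these lists was made. Of 7 transcription factors that act on genes of the secretory pathway, edgeR, DESeq2 and limma-voom called none, and 1 was lower at an unadjusted p under 0.05, *Xbp1*, the effector of IRE1 (log2 fold change −0.14, adjusted p = 0.165).

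**Figure D5:**
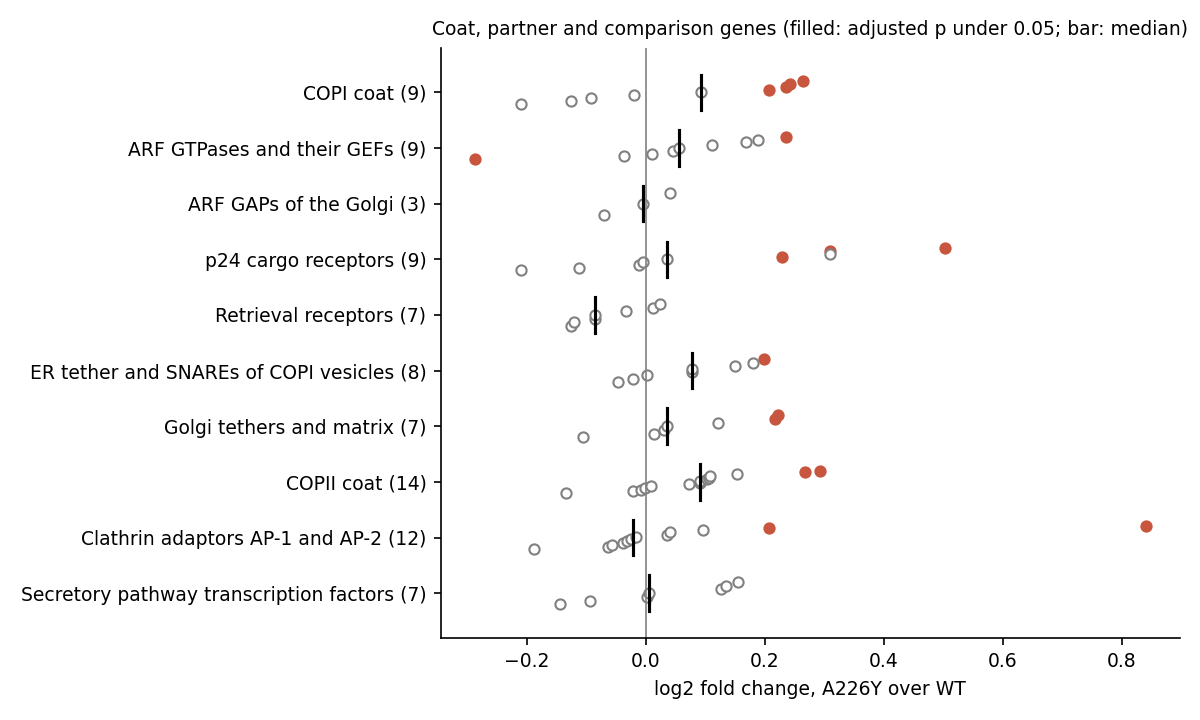
Log2 fold change (A226Y over WT) of each tested gene of the coat, of the 6 partner lists and of 3 comparison lists, with the number tested in brackets; filled points have an adjusted p under 0.05 and black bars are medians. *Tmed5* at 0.50 and the weakly expressed *Ap1s3* at 0.84 lie farthest to the right, and *Arf5* at −0.29 farthest to the left.

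Markers of the cell types of liver were compared in the same way. Beside 7.27% of all tested genes called higher and 7.03% called lower, 2 of 7 hepatocyte markers (*Cps1* and *Apob*) were higher and none lower with edgeR, with summed levels of 92940 to 162800 CPM in A226Y and 106500 to 196300 CPM in WT mice. Among them *Ttr* was lower at an unadjusted p under 0.05 (log2 fold change −0.22, adjusted p = 0.0753), and DESeq2 and the fit without mice 29 and 33 each called 1 of the 7 lower. Of 8 stellate cell and fibroblast markers, the collagen genes *Col1a1*, *Col1a2* and *Col3a1* were lower, and the sums ran from 312.5 to 372.3 CPM against 304.5 to 382.9 CPM. The most abundant of them, *Dcn*, had a log2 fold change of 0.18 (adjusted p = 0.0913), and 1 marker was higher at an unadjusted p under 0.05 and with DESeq2. Among 7 Kupffer cell markers 1 was lower, *Clec4f* (log2 fold change −0.65), the list had a median of −0.42 with *Marco* at 0.83 (adjusted p = 0.294), and the sums ran from 268.7 to 1062 CPM against 404.0 to 817.1 CPM. Lower Kupffer cell markers numbered 3 at an unadjusted p under 0.05, 2 with DESeq2 and 4 without mice 29 and 33. Endothelial (7 genes), cholangiocyte (5), B and plasma cell (6) and T and NK cell markers (5) held no call from edgeR with all mice and no covariates. At an unadjusted p under 0.05 they held 1 lower, 1 higher, none and 1 lower, and no marker of any list was at 0 in every mouse. With 4 surrogate variables 1 cholangiocyte marker was called higher. DESeq2 called 1 of the T and NK cell markers lower and none of the other 3 lists. The part of these cell types in the values of the coat genes was not tested.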

How the data were processed

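Frozen liver was extracted with Trizol and sequenced as single 50-base reads, per the study's methods. The authors deposited 1 file per mouse with a whole-number count per Ensembl gene, without normalization. The submitters' processing notes name STAR, featureCounts and build GRCm38, whereas the paper's methods name RSEM, and whether strand was used in counting is not given in the sources used here. Groups came from the sample labels, which name neither batches nor pairs.

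Genes that reached 10 counts in 50% or more of either genotype's mice, 13353 in all, were tested with edgeR 4.0.16 in R 4.3.3 (TMM scaling, two-sided quasi-likelihood test, no covariates, Benjamini-Hochberg adjustment over all tested genes, threshold 0.05). The standard error was taken as the log2 fold change divided by the square root of F, and 95% intervals used the test's own degrees of freedom. Log2 CPM used a prior count of 2 and ratios a prior of 0.5. Exact permutation tests were two-sided over all 43758 divisions of the mice. Counts were at least 419 per coat gene and mouse, and errors are given as the spread between mice. Libraries of a genotype were checked for repeat deposits, and none was found (chi-square per degree of freedom over all tested genes at least 19.8 for every pair). Positions, exons and coding sequence came from GENCODE M21, in which 22214 of 22524 identifiers were found, and promoters and microRNAs from RefSeq (GRCm38.p6).

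Alternatives were other scalings and filters, DESeq2 1.42.0, limma-voom 3.58.1, a robust fit, 4 surrogate variables (sva 3.50.0), lowess offsets on length or GC content (span 0.3, 3 iterations, 13300 genes) and leaving out each mouse. The procedures were tested on simulated data. The coat genes and all lists were chosen with earlier results of these data known. Named genes were all coat genes, *Rps2*, genes whose exons overlap a coat gene, from each partner and comparison list up to 6 genes under the threshold by smallest p or else the one with the smallest p, and the 5 genes most like the mean of the coat genes. *Tmed1* and the cell type markers named were chosen after their values were seen.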

Additional observations from a re-analysis of the deposited data

Results flagged for a closer look

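In 3 of 30 sets of values, the 9 coat genes and 6 ratios in each genotype, an extreme mouse stood apart from its group by a gap of more than the 95% critical share of the group's range (0.466 of the range for 10 mice, 0.526 for 8). Chance flags about 1 in 20 such sets. All 3 were A226Y mice. *Copa* was highest in mouse 7, with a gap of 0.604 of the range in log2 CPM (207.4 CPM, group median 180.7). *Copg2* was lowest in mouse 29, with a gap of 0.498 (17.0 CPM, group median 29.5). *Copz1* was highest in mouse 23, the most deeply sequenced library, with a gap of 0.494 (147.7 CPM, group median 105.7). None of these 3 genes passed the test with all mice, nor with the mouse concerned left out.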

How the results depend on the processing

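The 4 calls among the coat genes were kept, for the same 4 genes, under 3 other scalings, 2 other filters, DESeq2, limma-voom, the robust fit, the GC offset and the offset on the principal transcript. The last of these was added after the data were seen. With the offset on all exon bases the count fell to 1, and with 4 surrogate variables to 0, when the count over all genes fell from 1910 to 50. No coat gene was called lower under any alternative. Scaling by library size only put 68.0% of all calls on the higher side, beside 50.8% with TMM. Coat genes that missed the threshold changed sign in places. *Cope* moved from −0.02 to 0.024 with library size only, to 0.015 and 0.045 with the offsets on all exon bases and on the principal transcript and to 0.043 with the GC offset, and with surrogate variables *Copg2* moved to 0.057 and *Copz1* to 0.020. The cause was not tested. Among partner genes, 7 higher became 1 and 1 lower became 0 with surrogate variables, and 1 lower became 0 with both the offset on all exon bases and the GC offset.

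Leaving out each mouse in turn gave 3 to 4 coat genes higher (3 without WT mouse 13 or 24), 1255 to 2560 genes in all (lowest without WT mouse 14, highest without A226Y mouse 29), 4 to 10 partner genes higher (4 without A226Y mouse 7 or WT mouse 24, 10 without A226Y mouse 29), 0 to 2 partner genes lower, a log2 fold change of *Cope* of −0.048 to 0.0023, and a log2 difference in the *Copg1* to *Copg2* ratio of 0.25 to 0.41, with an adjusted p of 0.0178 to 0.141. That ratio passed the threshold without A226Y mouse 3, WT mouse 6 or A226Y mouse 23. Without A226Y mouse 29 and WT mouse 33, chosen after the data were seen, the difference was 0.24 and 2 partner genes were lower. No paired analysis was possible because the labels name no pairs.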

Other observations

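Some extreme mice were the same for several coat genes. A226Y mouse 7 had the highest value of its group for *Copa*, *Copb2*, *Copb1*, *Arcn1* and *Copg1*, WT mouse 24 had the lowest of its group for *Copb2*, *Copb1*, *Arcn1* and *Copg1*, and WT mouse 6 had the highest for *Copb1*, *Arcn1* and *Copg1*, but WT mouse 28 for *Copb2*. The lowest A226Y value was in mouse 29 for *Copb2* and *Copb1*, in mouse 23 for *Arcn1* and in mouse 3 for *Copg1*. *Copg2*, *Copz1* and *Copz2* instead peaked together in WT mouse 14, at 36.6, 156.3 and 33.1 CPM. Averaged over the 9 genes, the deviation from the genotype mean in log2 CPM was largest upward in WT mouse 14 (0.12), followed by A226Y mouse 7 (0.11), and largest downward in A226Y mouse 29 (−0.15). These are values of single animals, with no test.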
